A study of Mus musculus with 6 samples.

Results

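The enzymes that turn squalene into cholesterol were followed in ribosome-bound RNA of cortical pyramidal cells from mice given the antidepressant fluoxetine or its vehicle. The members were Sqle, Lss, Cyp51, Msmo1, Nsdhl, Hsd17b7, Ebp, Sc5d and Dhcr7, taken as every probe set whose platform annotation gives exactly 1 gene symbol equal to one of these names. This rule found 9 genes with 19 probe sets, of 18193 genes and 45037 probe sets in all. Of the 19, 14 passed the filter, a mean intensity of at least 50 in at least 1 group, and all 9 genes had such a probe set. The other 5 belonged to Lss, Cyp51, Msmo1, Hsd17b7 and Sc5d, lay between 6.42 and 21.1 on every array, and were not tested. Where a gene had several, the probe set of highest mean over the 6 arrays stands for it. Intensities of different probe sets share no scale, so levels are compared between arrays and not between genes.

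The study used 6 Affymetrix arrays, 3 fluoxetine-titled and 3 vehicle-titled. Mice of the fluoxetine-titled arrays drank 0.167 mg/ml fluoxetine in 1% saccharine, and those of the vehicle-titled arrays drank 1% saccharine without the drug, each for 15 to 18 days. All mice carried the Glt25d2 bacTRAP transgene of line DU9 and came from FVB animals crossed back for 3 to 5 generations to C57BL/6. In this system the regulatory region of Glt25d2 (now Colgalt2) drives a tagged ribosomal protein, and RNA is pulled down from cortex with the tagged ribosomes, so the labelled cells are those in which this 1 transgene line is active. The labels call the replicates biological but give neither the age and sex of the mice nor how many stand behind each array, so p-values measure only the spread between these samples. For each sample the title, the source name and the treatment field give one treatment, and the description field names the other. The titles are followed here, and going by the descriptions would reverse each sign given below while leaving the p-values as they are. The precision of each difference is limited by having 3 arrays per group.

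Cholesterol is made in the endoplasmic reticulum. Squalene is given an oxygen atom and folded into lanosterol, the first sterol, and a chain of demethylations, isomerisation, desaturation and reduction then leads to cholesterol. The genes are classical targets of the transcription factor SREBP2, which is released from the endoplasmic reticulum when sterols are low and acts on promoters together with NF-Y and Sp1. The adult brain makes its own cholesterol behind the blood-brain barrier, with astrocytes and myelinating oligodendrocytes as main producers and neurons also holding the enzymes.

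The promoters of Cyp51, Msmo1, Lss and Ebp are shown because the first was the only member whose arrays did not overlap between the treatments, the next pair was higher and the last lower in every pair of arrays with the same replicate number. They are RefSeq sequences of GRCm38.p6, from 250 bases before to 50 bases after an annotated start, 5′ to 3′ on the gene's strand, at chr5:4104648-4104947 (minus strand) for Cyp51, chr8:64733529-64733828 (minus strand) for Msmo1, chr10:76531355-76531654 (plus strand) for Lss and chrX:8193463-8193762 (minus strand) for Ebp. Capitals mark CCAAT, the core that NF-Y binds, and GGGCGG, the core that Sp1 binds, on either strand (ATTGG and CCGCCC on the other).
Cyp51: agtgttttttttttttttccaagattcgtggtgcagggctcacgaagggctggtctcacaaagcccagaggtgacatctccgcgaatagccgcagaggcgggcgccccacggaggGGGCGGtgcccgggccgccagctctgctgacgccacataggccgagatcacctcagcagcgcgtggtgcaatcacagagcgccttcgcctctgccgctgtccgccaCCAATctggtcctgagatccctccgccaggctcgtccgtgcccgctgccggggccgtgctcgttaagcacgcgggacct
Msmo1: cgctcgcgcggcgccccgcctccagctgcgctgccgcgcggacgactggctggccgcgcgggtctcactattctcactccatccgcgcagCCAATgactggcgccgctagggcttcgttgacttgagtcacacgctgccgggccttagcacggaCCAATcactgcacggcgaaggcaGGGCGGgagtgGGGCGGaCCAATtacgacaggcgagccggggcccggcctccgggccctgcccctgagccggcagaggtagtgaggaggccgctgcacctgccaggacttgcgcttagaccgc
Lss: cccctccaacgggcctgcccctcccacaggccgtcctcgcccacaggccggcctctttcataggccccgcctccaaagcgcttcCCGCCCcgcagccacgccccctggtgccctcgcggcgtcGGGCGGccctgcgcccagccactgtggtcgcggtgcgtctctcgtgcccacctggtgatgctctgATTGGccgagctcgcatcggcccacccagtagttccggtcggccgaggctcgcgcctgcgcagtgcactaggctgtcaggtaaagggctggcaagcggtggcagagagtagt
Ebp: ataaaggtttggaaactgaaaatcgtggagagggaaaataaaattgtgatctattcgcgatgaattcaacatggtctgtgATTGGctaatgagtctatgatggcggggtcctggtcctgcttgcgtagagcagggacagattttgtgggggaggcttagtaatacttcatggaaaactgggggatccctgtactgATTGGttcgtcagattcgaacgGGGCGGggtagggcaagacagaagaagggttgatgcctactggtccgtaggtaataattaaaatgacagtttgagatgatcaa

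Of the 9 members, 8 had a promoter sequence available, and Sqle did not. The promoter of Hsd17b7, also higher in every pair of equal replicate number, is counted here but not shown. All 8 held at least 1 CCAAT and at least 1 GGGCGG (Dhcr7 has 3 windows and the others 1), against 41.1% of 27025 genes for CCAAT and 38.2% for GGGCGG. Both motifs together in 1 window were found for 8 of 8 members and for 14.5% of genes. The 27025 genes were neither limited to those kept by the filter nor matched to the members in base composition. Windows of the members held between 45.3% (Ebp) and 71.0% (Lss) G and C. The first base of CCAAT or its complement, as printed, lay 29 bases before the start in Cyp51, 160, 96 and 55 before it in Msmo1, 62 in Lss, and 170 and 55 in Ebp. No base was shared by a CCAAT and a GGGCGG match. The E-box CACGTG, which reads the same on both strands, was in windows of Hsd17b7, Sc5d and Dhcr7, 3 of 8 members, against 8.09% of genes. A sterol response element, searched as TCACNCCAC on both strands, was in 0 of 8 members and in 1.44% of genes, which says only that these letters are not in these windows. Ebp, the member that lay lower, held both CCAAT and GGGCGG like the others. Matches are letters in a window and not measured binding.

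Fluoxetine-titled arrays were compared with vehicle-titled arrays to ask how some weeks of the drug alter the messages being translated in the labelled cells. No member passed an adjusted p of 0.05 in limma, with or without the replicate number as a block, and neither did any other probe set (0% called in each fit). The largest fold of a member, fluoxetine-titled over vehicle-titled, was 1.21 (Cyp51). In direction, 8 of 9 members had a positive difference and Ebp a negative one, where 47.8% of 10830 genes had a positive difference. Higher values in all 3 pairs of equal replicate number were found for 5 members (Sqle, Lss, Cyp51, Msmo1 and Hsd17b7) and for 10.9% of genes. Lower values in all 3 pairs were found for 1 member, Ebp, and for 13.1% of genes. Groups without overlap, fluoxetine-titled on top, were found for 1 member, Cyp51, and for 1.63% of genes. The opposite order was found for 0 members and 1.98% of genes. The members' median log2 difference was 0.090, and that of all genes was -0.0068.

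Those counts leaned on a few arrays. Without vehicle array 3, 5 of 9 members had a positive difference and the median was 0.063, while 45.2% of all genes were then positive. Nsdhl, Hsd17b7, Ebp and Dhcr7 were the negative ones. Without fluoxetine array 1 it was again 5 of 9, with a median of 0.096, and the share over all genes is not given for that case. The median was 0.25 without fluoxetine array 3, 0.23 without vehicle array 1 and 0.18 without vehicle array 2. The members were chosen with earlier results of these data known, and these counts are a description.

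Of all 19073 probe sets tested, 121 (0.634%) had an unadjusted p under 0.05 in limma, and 767 (4.02%) did with the replicate block. Neither set held any of the 9 members. The lowest unadjusted p of a member was that of Cyp51, at 0.112, and 0.0556 with the block. The adjusted p of the members was 0.9999 without the block and between 0.993 and 0.996 with it.

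**Figure D1:**
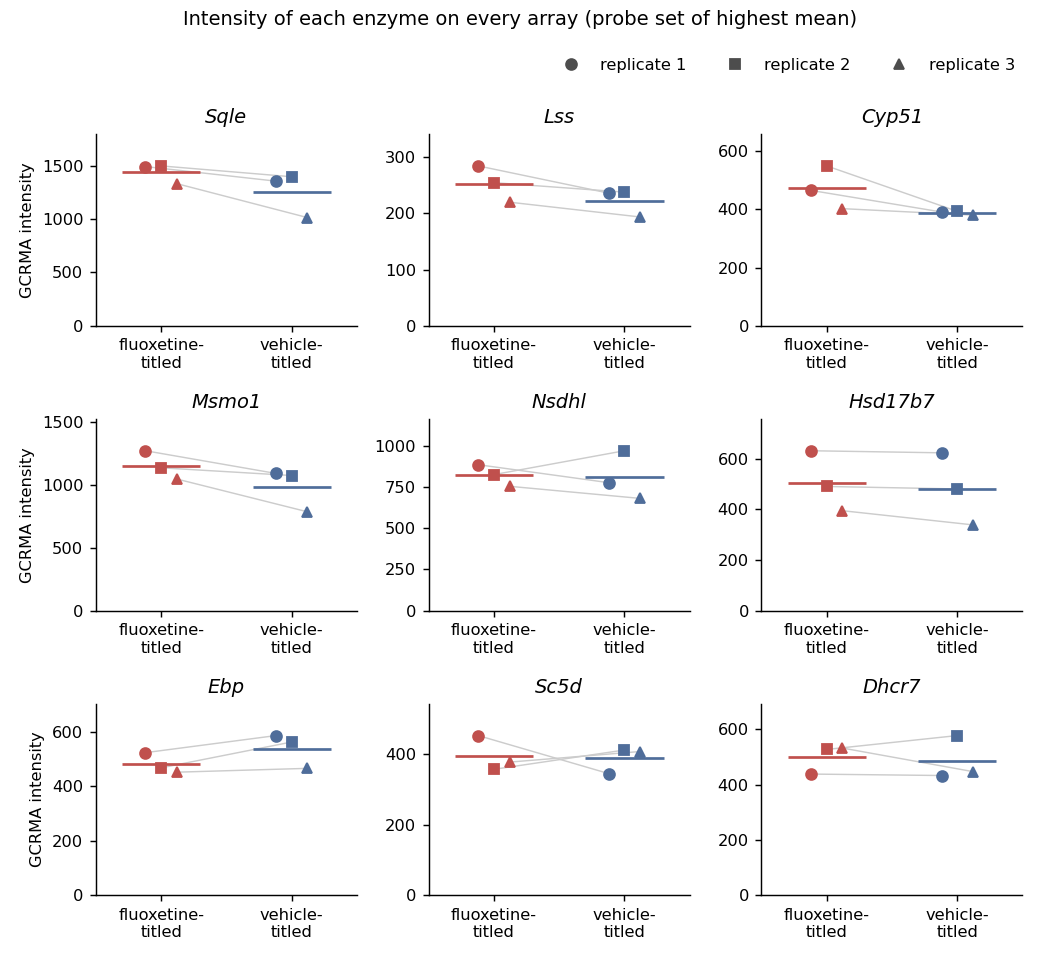
GCRMA intensity of the 9 enzymes on each of the 6 arrays, fluoxetine-titled left and vehicle-titled right in each panel; symbols give the replicate number, grey lines join arrays of equal number, and bars are group means (n = 3 each). The groups overlap in every panel but that of Cyp51, and vehicle array 3 is the lowest point for Sqle, Lss, Cyp51, Msmo1, Nsdhl and Hsd17b7.

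Squalene epoxidase, Sqle, adds the oxygen and is a rate-limiting step of the pathway. It had intensities of 1491, 1497 and 1331 on fluoxetine-titled arrays 1, 2 and 3, against 1354, 1396 and 1013 on vehicle-titled arrays 1, 2 and 3. The lowest fluoxetine-titled value lay below the vehicle-titled values of arrays 1 and 2, and vehicle array 3 stood clearly under the rest. The means were 1439.8 ± 94.1 and 1255 ± 209.8 (SD, n = 3 each). The log2 difference was 0.21 ± 0.16 (SE, 95% interval -0.17 to 0.60), and without vehicle array 3 it was 0.064.

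Lanosterol synthase, Lss, closes the rings of the sterol. Its intensities were 284.4, 254.6 and 219.9 on the fluoxetine-titled and 236.0, 237.8 and 193.6 on the vehicle-titled arrays, so the groups overlapped while each fluoxetine-titled array exceeded the vehicle-titled array of its number. The log2 difference was 0.18 ± 0.16, with 0.27, 0.099 and 0.18 in pairs 1, 2 and 3, and it was 0.087 without vehicle array 3. A second probe set of Lss, whose suffix marks probes shared by several transcripts, had 139.3, 187.2 and 176.3 on the fluoxetine-titled and 156.5, 187.5 and 99.1 on the vehicle-titled arrays. Its mean difference, 0.22 ± 0.25, came from pair 3 (0.83), since pairs 1 and 2 gave -0.17 and -0.0025.

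Lanosterol demethylase, Cyp51, is the cytochrome P450 that takes a methyl group off lanosterol. It was the member with no overlap, at 465.0, 549.1 and 402.3 on the fluoxetine-titled arrays against 390.8, 393.1 and 380.2 on the vehicle-titled ones. The vehicle-titled arrays lay close together, at 388.0 ± 6.88 (SD, n = 3), and the fluoxetine-titled ones were spread, at 472.1 ± 73.7 (n = 3). The log2 difference was 0.27 ± 0.15 (95% interval -0.081 to 0.62), and 0.26 without vehicle array 3. Fluoxetine array 2 carried much of it, since the difference was 0.25, 0.48 and 0.081 by pair. Without that array it was 0.16. A second Cyp51 probe set did overlap: 294.3, 186.4 and 160.8 on the fluoxetine-titled and 218.1, 212.3 and 120.0 on the vehicle-titled arrays, with a difference of 0.22 ± 0.31. In pair 2 its difference was negative (-0.19), where the first probe set showed its largest positive difference.

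The methylsterol oxidase Msmo1 starts the removal of the methyl pair on the first ring, and Nsdhl, an X-linked dehydrogenase, and the ketoreductase Hsd17b7 complete it. Msmo1 had 1269, 1134 and 1045 on the fluoxetine-titled and 1089, 1073 and 784.7 on the vehicle-titled arrays. Its groups overlapped by the lowest fluoxetine-titled array, and the log2 difference was 0.24 ± 0.17 (95% interval -0.17 to 0.64), with 0.22, 0.080 and 0.41 by pair. Without vehicle array 3 it was 0.084. Nsdhl had 883.7, 823.8 and 752.8 on the fluoxetine-titled and 774.9, 968.3 and 679.6 on the vehicle-titled arrays, with vehicle array 2 the highest and vehicle array 3 the lowest of all 6. Its difference of 0.035 ± 0.17 turned sign without fluoxetine array 1 (-0.021) and without vehicle array 3 (-0.082), and it was 0.19, -0.23 and 0.15 by pair.

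Hsd17b7 differed more between replicate numbers than between treatments. Its probe set of highest mean, with the suffix x, had 631.2, 490.1 and 394.5 on the fluoxetine-titled and 623.0, 480.3 and 338.4 on the vehicle-titled arrays, so arrays of equal number lay close and those of different number far apart. The log2 difference between treatments was 0.090 ± 0.27, and the SE was 0.10 in the fit with the replicate block. This difference turned sign without fluoxetine array 1 (-0.084) and without vehicle array 3 (-0.14). The replicate number passed the limma F-test for this probe set (adjusted p = 0.0273), with geometric means of 627.1, 485.2 and 365.4 for arrays numbered 1, 2 and 3. A second probe set of the same gene passed too (adjusted p = 0.0237) but in another order, with 39.6, 83.9 and 73.1, so that arrays numbered 1 were the lowest and not the highest. It had 37.8, 101.1 and 74.1 on the fluoxetine-titled and 41.4, 69.6 and 72.1 on the vehicle-titled arrays. The last kept probe set was flat between 46.8 and 60.0 and did not pass (adjusted p = 0.226). The suffix x marks probes that can bind transcripts of other genes, and which of these readings belongs to Hsd17b7 was not tested. In the treatment difference all of them were small and positive, at 0.090, 0.15 and 0.050.

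Among the members, Hsd17b7 was the 1 gene of 9 whose leading probe set passed the F-test of replicate number, where 12.9% of genes did. Over all kept probe sets of the members it was 3 of 14, with the second one of Cyp51 included (adjusted p = 0.0494), where 14.8% of probe sets did. That Cyp51 probe set had geometric means of 253.4, 199.0 and 138.9 for arrays numbered 1, 2 and 3. No label says what a replicate number stands for.

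**Figure D2:**
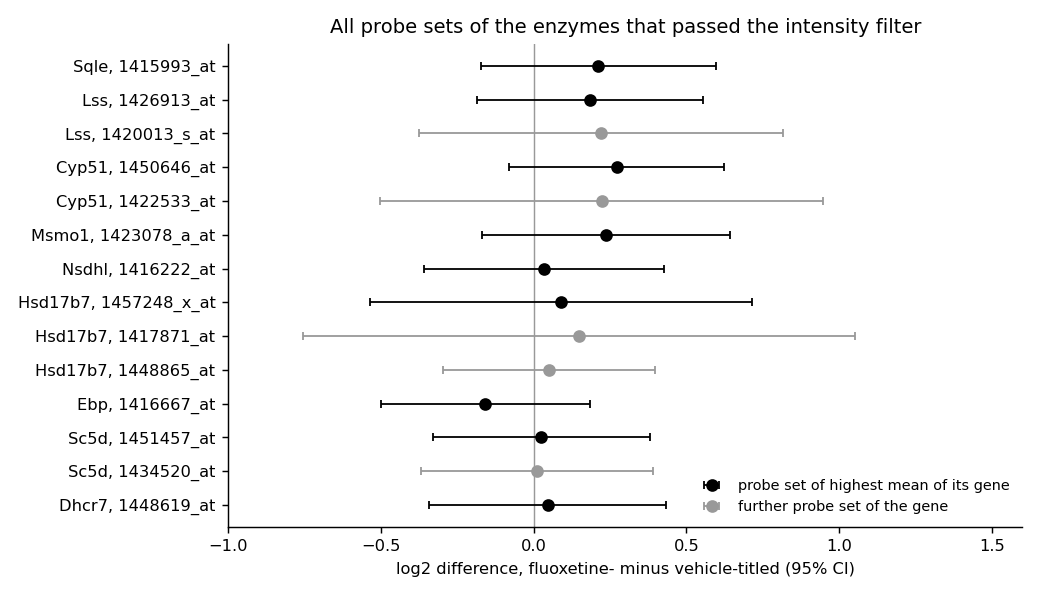
Log2 difference, fluoxetine-titled minus vehicle-titled, with its 95% limma interval for the 14 probe sets of the 9 enzymes that passed the intensity filter; black points are the probe set of highest mean of a gene and grey points further ones. All intervals contain 0, 13 of 14 differences are positive, and the 5 further probe sets have the sign of the first.

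The sterol isomerase Ebp, which moves a double bond within the ring system and is also known as the emopamil-binding protein, was the member placed the other way. It had 522.8, 467.1 and 451.3 on the fluoxetine-titled and 585.3, 561.8 and 465.3 on the vehicle-titled arrays. Each fluoxetine-titled array was below the vehicle-titled array of its number, and the groups overlapped through fluoxetine array 1 and vehicle array 3. The means were 480.4 ± 37.6 and 537.4 ± 63.6 (SD, n = 3 each), and the log2 difference was -0.16 ± 0.145 (95% interval -0.50 to 0.18). It kept its sign in every alternative run, and without vehicle array 3, where the values of Sqle, Lss and Msmo1 came closer together, it was -0.26.

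The last steps showed no common direction across pairs. Sc5d, the desaturase that adds a double bond to lathosterol, had 451.5, 356.2 and 376.5 on the fluoxetine-titled and 344.0, 410.6 and 406.4 on the vehicle-titled arrays. The highest and the lowest value both came from arrays numbered 1, and the log2 difference was 0.39 in pair 1 and -0.21 and -0.11 in pairs 2 and 3. The mean of 0.026 ± 0.15 turned sign without fluoxetine array 1 (-0.075) or vehicle array 1 (-0.057). The second Sc5d probe set gave another pattern by pair, with -0.028, -0.24 and 0.31, and a mean of 0.011 ± 0.16. Its values on fluoxetine array 3 and vehicle array 1 were exactly equal in the deposited table, at 227.8, the only such tie among the members' kept probe sets.

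Dhcr7, the reductase that makes cholesterol from its dehydro precursor, had 438.4, 527.4 and 532.4 on the fluoxetine-titled and 433.1, 577.4 and 447.3 on the vehicle-titled arrays. Arrays numbered 1 were the lowest of their group in both treatments. The log2 difference of 0.046 ± 0.16 was made of 0.017, -0.13 and 0.25 by pair, and it turned sign without fluoxetine array 3 (-0.0031), vehicle array 1 (-0.031) or vehicle array 3 (-0.0078). In the fit without the replicate block, the 95% intervals of the 9 leading probe sets lay between -0.53 and 0.71. For these a 2-fold difference in either direction was outside the interval. That of the second Hsd17b7 probe set, -0.75 to 1.05, was wider and held a 2-fold rise. With the replicate block it was -0.20 to 0.50, which did not, and that of the leading Cyp51 probe set was -0.0086 to 0.55.

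**Figure D3:**
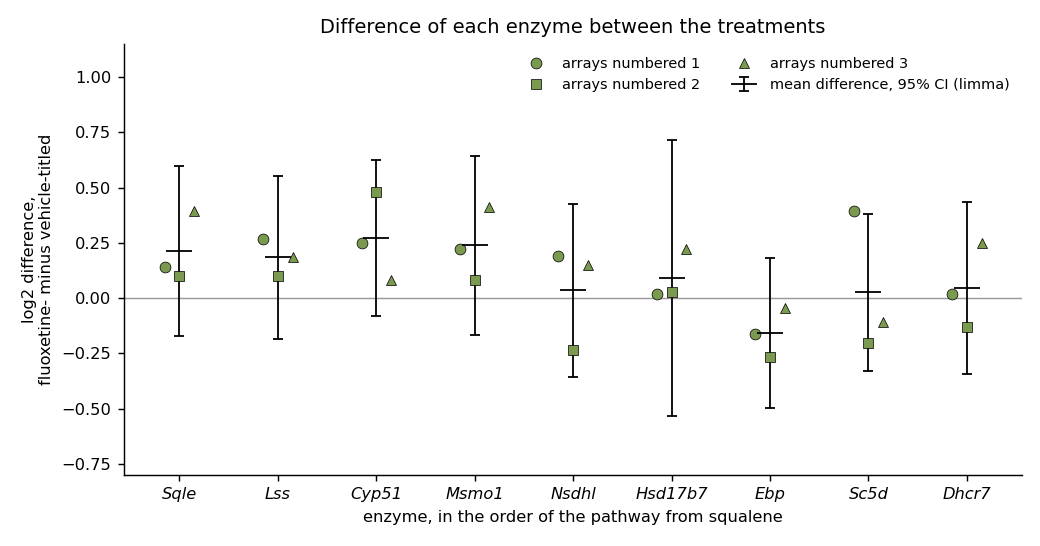
Log2 difference of each enzyme in pathway order, fluoxetine-titled minus vehicle-titled, for arrays of equal replicate number (symbols) and as the mean with its 95% limma interval (black). Sqle, Lss, Cyp51, Msmo1 and Hsd17b7 have all 3 symbols above 0, Ebp has all 3 below, and Nsdhl, Sc5d and Dhcr7 lie on both sides.

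The members did not all vary together over the 6 arrays. The SD of log2 intensity ran from 0.15 (Sc5d) to 0.36 (Hsd17b7) with a median of 0.19, beside a median of 0.20 and quartiles of 0.14 and 0.29 over all genes. Vehicle array 3 was the lowest of the 6 for 6 of 9 members and for 21.6% of all genes. Fluoxetine array 1 was the highest for 4 of 9 members (Lss, Msmo1, Hsd17b7 and Sc5d) and for 21.3% of genes. The Pearson r of each member with the mean of the others, over 6 arrays that share replicate numbers, was 0.95 for Lss, 0.93 for Msmo1, 0.92 for Sqle, 0.82 for Nsdhl and 0.725 for Hsd17b7. It was 0.44 for Cyp51 and 0.39 for Ebp, and 0.051 for Sc5d and 0.036 for Dhcr7. The low r of Sc5d goes with the smallest SD of the members, and its 2 kept probe sets differed by pair. On the mean over the members, the fluoxetine-titled arrays 1, 2 and 3 lay at 0.16, 0.073 and -0.076 and the vehicle-titled ones at 0.012, 0.078 and -0.25 (log2, centred per gene). The 2 groups overlapped on this scale, and arrays 2 were level.

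By a rule of likeness over the 6 arrays, the genes of 10821 non-members whose log2 profile was most like the members' mean profile were Zadh2, Fbxo42, Cd81, Sepsecs and Enpp4. Their Pearson r lay between 0.985 and 0.997, values that the best of so many genes on so few arrays can reach, and the arrays share replicate numbers. Zadh2 had 803.8, 720.0 and 613.4 on the fluoxetine-titled and 656.6, 715.4 and 479.6 on the vehicle-titled arrays, again with fluoxetine array 1 highest and vehicle array 3 lowest. None of the 5 is an enzyme of sterol synthesis.

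**Figure D4:**
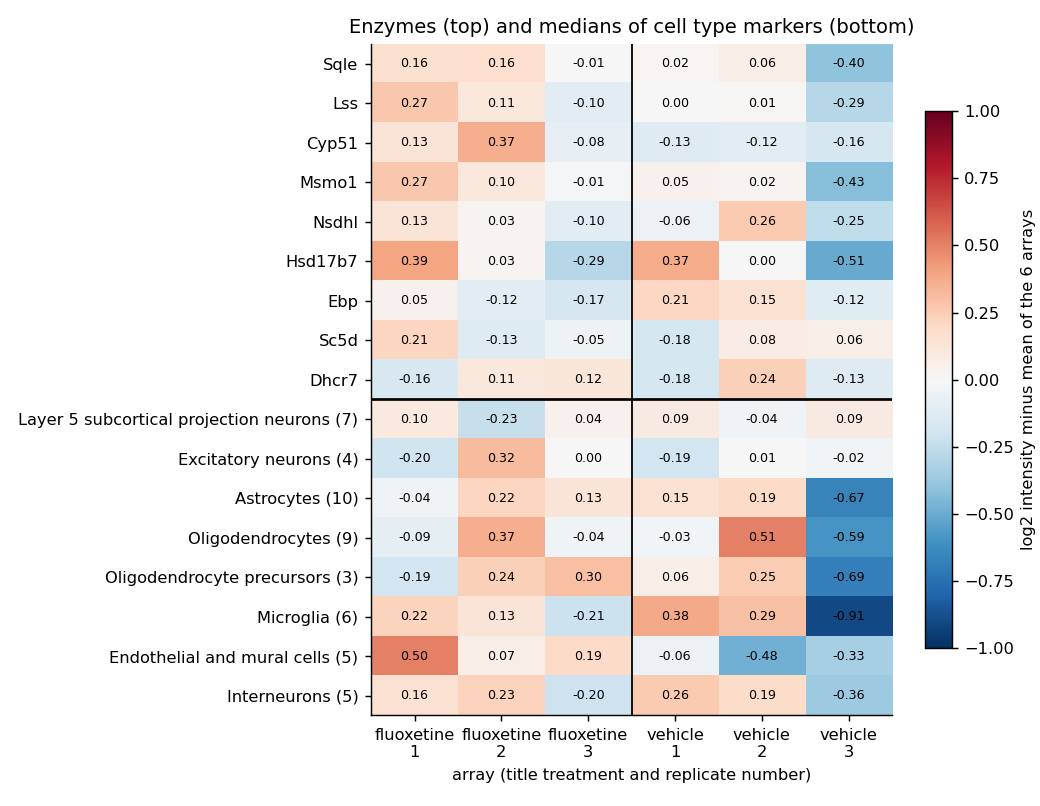
Log2 intensity minus the mean of the 6 arrays for each enzyme (top) and the median over the markers of each cell type (bottom, number of markers kept in brackets), fluoxetine-titled arrays left and vehicle-titled right. Vehicle array 3 is lowest for most enzymes and for astrocyte, oligodendrocyte, precursor, microglia and interneuron markers, and layer 5 markers are at 0.092 there.

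Markers of the labelled cells were present, with 7 of 7 layer 5 genes kept and summed intensities of 41136 to 52296 on the fluoxetine-titled and 43987 to 56668 on the vehicle-titled arrays. Of these 7, 6 were below 0 in the treatment difference (median -0.088), a sign opposite to that of most members. Markers of other cells were present too, and none of the kept ones was below 51.4 on any array. Of 10 astrocyte markers 10 were kept, with sums of 24997 to 32527 on the fluoxetine-titled and 17996 to 31525 on the vehicle-titled arrays, and of 10 oligodendrocyte markers 9, with 28859 to 35878 and 21059.6 to 38921 in the same order of treatments. Of 3 precursor markers 3 were kept (535 to 680.3 and 376 to 651), of 7 microglia markers 6 (1999 to 2797 and 1218 to 3137), of 7 endothelial and mural markers 5 (1736 to 1995 and 1230 to 1605), and of 5 interneuron markers 5 (21282 to 24947 and 17722 to 24965). Vehicle array 3, lowest for 6 of 9 members, had the lowest sum of astrocyte, oligodendrocyte, precursor, microglia and interneuron markers. The median marker there lay 0.67 below its mean over the arrays for astrocytes, 0.59 below for oligodendrocytes and 0.91 below for microglia (log2), against 0.25 below for the members. In pair 3 the median astrocyte marker differed by 0.77 and the median member by 0.18, and in pair 1 by -0.13 and 0.19. The endothelial and mural sums did not overlap between the treatments. Of the 5 kept markers 5 were above 0, 4 of them in every pair. Their median difference was 0.40, and by pair it was 0.36, 0.55 and 0.35. Acta2, a smooth muscle actin, had 0.68 ± 0.19. Pecam1 and Flt1, under the filter, had lower fluoxetine-titled means but mixed signs by pair. In pairs 1, 2 and 3 Pecam1 gave 0.016, 0.12 and -0.61, its highest value being 10.6 on vehicle array 3. Flt1 gave -0.51, 0.29 and -0.21. Their mean intensities were 6.90 and 39.0 on the fluoxetine-titled and 7.89 and 42.9 on the vehicle-titled arrays. The median astrocyte marker differed by 0.21, with 10 of 10 positive, but without vehicle array 3 by -0.093, with 4 of 10 positive. Without that array the median was -0.21 for oligodendrocyte (1 of 9 positive) and -0.23 for microglia markers (1 of 6). For endothelial and mural markers it was then 0.51 (4 of 5). No marker of any list passed an adjusted p of 0.05. In such a mixture, fewer cells of a type and less RNA per cell cannot be told apart, and the part of these markers in the members' differences was not tested.

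The steps before squalene and the sterol regulators were counted from lists drawn up with earlier results of these data known. Of 10 genes of the mevalonate arm 8 were kept, and 7 of these lay above 0; the median was 0.17, and 0.084 without vehicle array 3 (5 of 8 above 0). No gene of any list below passed an adjusted p of 0.05, with or without the block. Hmgcs1, which makes the precursor of mevalonate, had a log2 difference of 0.15 ± 0.20, the isomerase Idi1 one of 0.53 ± 0.22, and Fdft1, the synthase that makes squalene itself, one of 0.21 ± 0.13. Idi1 had the largest difference of this list, and Mvk (0.19 ± 0.12) and Ggps1, the only negative one (-0.036 ± 0.21), are added after their values were seen. Idi1 had 2206, 2248 and 1836 on the fluoxetine-titled and 1781, 1595 and 1056 on the vehicle-titled arrays, with no overlap.

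Tm7sf2 and Lbr encode the reductases that act between Cyp51 and Msmo1. Tm7sf2 had 490.2, 288.5 and 301.8 on the fluoxetine-titled and 357.8, 286.6 and 284.0 on the vehicle-titled arrays, and Lbr 123.8, 114.0 and 134.4 against 93.0, 114.1 and 104.8. Both overlapped between groups, with log2 differences of 0.18 ± 0.23 and 0.26 ± 0.14, and Lbr, which is also a protein of the nuclear envelope, was equal in pair 2 (-0.00077).

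Of 7 regulators of SREBP all were kept, 6 were above 0 and the median difference was 0.039. Insig1, a sterol-dependent anchor of the SREBP escort protein and itself an SREBP target, had 230.1, 236.2 and 290.7 on the fluoxetine-titled and 178.7, 190.2 and 164.5 on the vehicle-titled arrays. These groups did not overlap, and the log2 difference, the largest of the regulators, was 0.50 ± 0.15 (limma adjusted p = 0.9999). Srebf2, the gene of the factor itself, had 0.14 ± 0.15, Srebf1 -0.088 ± 0.23, and the escort gene Scap 0.039 ± 0.13. For Srebf1 the sign differed by pair, with -0.44, -0.29 and 0.47.

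Of 10 genes of uptake and transport 7 were kept, and of 10 of export and turnover 6. Those of uptake and transport had a median of 0.0064 (4 of 7 positive) and those of export and turnover one of -0.013 (3 of 6 positive). Stard4, a sterol transfer protein and the largest difference among the transport genes, had 0.38 ± 0.27, the neuronal cholesterol hydroxylase Cyp46a1 0.028 ± 0.21 and the exporter Abca1 -0.034 ± 0.235. Without vehicle array 3 the medians of these lists of transport and turnover genes were both -0.15. Fatty acid genes that SREBP1 regulates had a median of 0.13 with 8 of 9 positive. Vehicle array 3 was lowest for 8 of these 9, and without it the median was -0.011 with 4 of 9 positive.

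**Figure D5:**
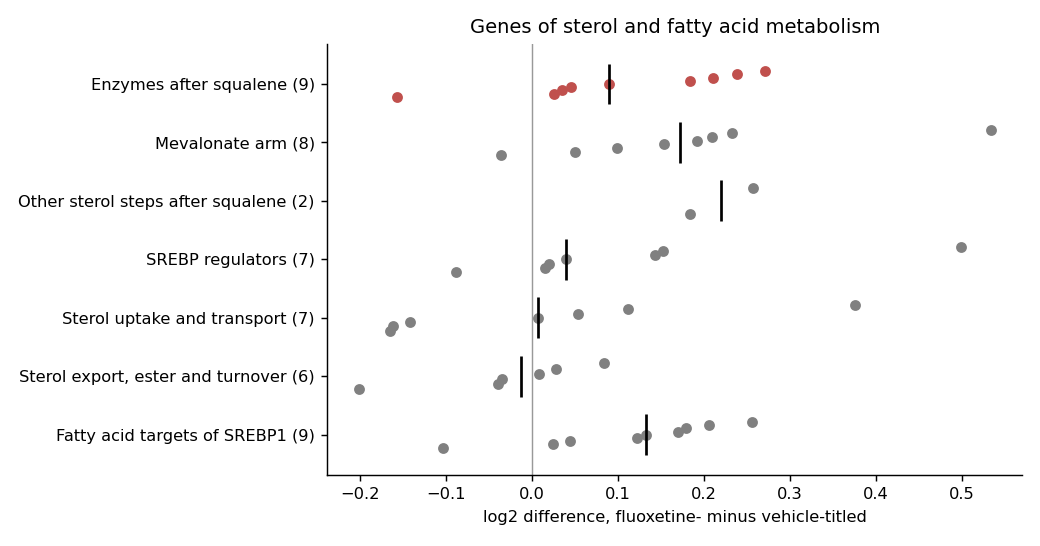
Log2 difference, fluoxetine-titled minus vehicle-titled, of each kept gene of 7 lists of sterol and fatty acid metabolism (points) with the list median (black bar) and the number of genes in brackets. The enzymes after squalene spread from -0.16 to 0.27, and the points farthest to the right are Idi1 of the mevalonate arm and Insig1 of the regulators.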

How the data were processed

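TRAP RNA of 6 samples was measured on Affymetrix arrays, 15 ng of RNA each with 2-cycle amplification per the labels' protocols. The values deposited by the authors are linear intensities, 1 per probe set on each array. The submitters' processing notes name GCRMA, and its version and settings are not stated there. GCRMA corrects background from probe sequence and normalizes between arrays, so low values are compressed toward a floor. Medians per array lay between 23.0 and 23.4. Intensities as deposited by the authors were turned into log2 values, and 64 control probe sets and those with both group means under 50 were left out, which left 19073. The design text speaks of averaged replicates and of another transgene, S100a10, but the table has 1 column per array. The series' design text advises a filter at 50, without saying whether 1 or both conditions must pass. Names came from the platform annotation (34945 probe sets with 1 symbol, 932 with several, 9160 not listed); 34754 matched a RefSeq table of GRCm38.p6 by Entrez identifier, which changed 0 symbols.

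Fluoxetine-titled minus vehicle-titled differences were fitted with lmFit and eBayes of limma 3.58.1 (R 4.3.3), two-sided, Benjamini-Hochberg adjusted over all probe sets kept. The replicate number was tested by a limma F-test beside treatment. The code was tested on simulated data. Replicate numbers were taken to pair the samples. Over the probe sets kept, deviations from the group means correlated at 0.74, 0.60 and 0.50 for equal numbers. For unequal numbers the correlations lay between -0.59 and 0.26. The deviations of a group cancel out, so these correlations depend on each other. The pairing rests on the titles and this check. The members, lists and alternatives were chosen with earlier results of these data known. Named were all members, single genes picked from the lists, some of them the largest differences there, and the 5 genes most like the members' mean profile by Pearson r. Alternatives were the replicate block, filters, a floor at 50, quantile normalization, median centring, limma with trend, arrays left out and averaged probe sets.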

Additional observations from a re-analysis of the deposited data

How the results depend on the processing

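The count of probe sets called between the treatments was 0 in all 16 alternatives run for it, and that for replicate number was 2827, 2991 with both group means at 50 or more and 2687 with quantile normalization. With the replicate block, limma gave 0 calls, 767 probe sets at an unadjusted p under 0.05 in place of 121, and changed no call of a member. That count was 920 without a filter, over 45037 probe sets, and between 52 and 521 with arrays left out. With 1 array or 1 pair left out, the members' median log2 difference lay between 0.063 and 0.25, and the number of members with a positive difference between 5 and 8. The log2 difference lay between -0.057 and 0.18 for Dhcr7, -0.14 and 0.30 for Hsd17b7, -0.082 and 0.17 for Nsdhl, and -0.16 and 0.14 for Sc5d. Sqle, Lss, Cyp51, Msmo1 and Ebp kept their sign in every alternative run. Signs turned in no alternative other than those that leave out arrays, and the cause was not tested. A group left with 2 arrays has fewer values behind each mean.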
